A study of Drosophila melanogaster with 8 samples.

Results

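HP1 domains that span a single bin of 500 bp are the shortest regions that the deposited list of HP1-bound chromatin in Drosophila melanogaster ovaries can hold. They were chosen by length, as domains of exactly 500 bp outside the centromere-proximal ends of 4 arms, and 718 of the 4467 domains in the list met this rule. The ends left out were 2L from 20 Mb on, 3L from 20.9 Mb on, X from 20.4 Mb on and 3R up to 2 Mb, which removed 72 of the 790 single-bin domains. No limit was set on 2R, where the first domain of the list starts at position 1643501. Within these limits the list held 4089 domains, so that 17.6% of them were single-bin domains. Positions are of build dm3, per the submitters' processing notes, and are counted from 1.

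The list comes from DamID, in which a protein of interest is fused to the bacterial Dam methylase and marks the adenine of nearby GATC sites. Dam without a fused protein is the control for how reachable the DNA is. The 4 samples were whole ovaries from females aged 0 to 4 days, with 2 Dam-HP1 samples (F1 progeny of hsp70-FLP and STOP#1-Dam-HP1) and 2 Dam only samples (F1 progeny of hsp70-FLP and STOP#1-Dam). Each sample took 160 to 200 ovaries and 16 PCR cycles and gave about 30 M reads of 100 nt, per the labels. The labels name neither the ovarian cells in which Dam was active nor a heat shock, so signal from somatic and germline cells cannot be told apart in DNA of whole ovaries.

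HP1a is a chromodomain protein that binds histone H3 methylated at lysine 9 and is the founding member of its family. It is best known as a structural protein of pericentric heterochromatin, telomeres and chromosome 4, where it can cover long stretches. It also sits at scattered places in the euchromatic arms, where its binding is more varied and can involve RNA or partner proteins. The distance of a short bound place from longer ones is therefore a basic description of euchromatic binding.

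The list gives 1 set of start and end positions for all 4 samples, with no height, score or value per sample. No replicate error can be given for any domain, and the depth behind a domain is unknown. Lengths and distances come from the same calls, so they are descriptions without a test. The 95% intervals below are exact Clopper-Pearson intervals for shares and order-statistic intervals for medians. They treat domains as independent, which neighbours are not, so they are narrower than the true error.

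Single-bin domains were the most frequent length, but held little of the bound DNA. The 718 regions covered 359 kb in all, which was 2.63% of the 13.6 Mb covered by domains inside the limits. Numbers fell with length from there: 548 domains, just outside the rule, were 1000 bp long, 487 were 1500 bp and 413 were 2000 bp. The median domain was 2000 bp long on every arm.

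Every arm carried single-bin domains, and the X chromosome carried the most of them per Mb. Their number was 107 on 2L, 123 on 2R, 142 on 3L, 157 on 3R and 189 on X. Per Mb of the stretch between the first and the last domain inside the limits, this was 5.38 on 2L, 6.08 on 3R, 6.32 on 2R, 6.8 on 3L and 9.28 on X. Longer domains were densest on X as well, with 38.0 per Mb, against 28.2 to 32.1 per Mb on the other arms. As a share of all domains of the arm, single-bin domains ran from 15.7% (95% interval 13.0 to 18.6) on 2L to 19.6% (95% interval 17.2 to 22.3) on X. These 2 intervals overlap, which does not show that the shares are alike. Differences between arms in density or in share were not tested.

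Most single-bin domains had company, and a minority stood alone. The median distance from edge to edge to the nearest other domain of any length was 3750 bp (95% interval 3000 to 4500), with quartiles at 500 and 10375 bp. Another domain lay within 1 kb of 279 of them (38.9%, 95% interval 35.3 to 42.5) and within 5 kb of 419 (58.4%). At the other end, 81 (11.3%, 95% interval 9.06 to 13.8) had no other domain within 20 kb, and 13 (1.81%) had none within 50 kb. Among the 3371 longer domains the median distance was 6500 bp. Another domain lay within 1 kb of 22.7% of these and within 5 kb of 43.4%. None lay within 20 kb of 15.9% and within 50 kb of 2.20%.

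By median distance, single-bin domains on 3L, X and 2R lay closer to another domain than those on 2L and 3R. On 3L, X and 2R the median distance was 1500 bp (95% interval 500 to 4500), 2000 bp (1000 to 3500) and 3000 bp (1000 to 5500). On 2L and 3R it was 5000 bp on each (4000 to 8000 on 2L and 4000 to 6500 on 3R). The interval of 2R overlaps those of 2L and 3R, and that of 3L overlaps them at its upper end. X was thus the only arm whose interval lay below those of 2L and 3R, which is a description and not a test, as these intervals are too narrow. Medians of longer domains were 5000 bp on X, 5500 bp on 3L, 7500 bp on 2R and 8000 bp on 2L and 3R. Arm 2R, which had no limit, held 13 of its 123 single-bin domains between 2000001 and 3000000. Most of these 13 had another domain within 1 kb, so the median of 2R rests in part on this stretch. Its median without them was not computed, and how near it then lies to those of 2L and 3R is not shown.

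The share with another domain within 1 kb was also higher on 3L, X and 2R. It was 49.3% on 3L (95% interval 40.8 to 57.8), 45.0% on X (37.7 to 52.4) and 43.9% on 2R (35.0 to 53.1), against 28.0% on 2L (19.8 to 37.5) and 25.5% on 3R (18.9 to 33.0). The intervals of 3L, X and 2R all lay above that of 3R. Those of 3L and X also lay above that of 2L, X only barely (37.7 against 37.5), while that of 2R met it. Near domains count each other as neighbours, so these intervals are too narrow and do not serve as a test between arms. Among longer domains the share was 32.8% on 3L, 23.4% on X, 21.1% on 2R, 20.3% on 2L and 16.0% on 3R. There too 3L was highest and 3R lowest, while 2R lay near 2L. The curves of distance by arm part at the very first step, the gap of 1 bin. At 50 kb at most 3.82% of the members of any arm (3R) still had no neighbour.

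**Figure D1:**
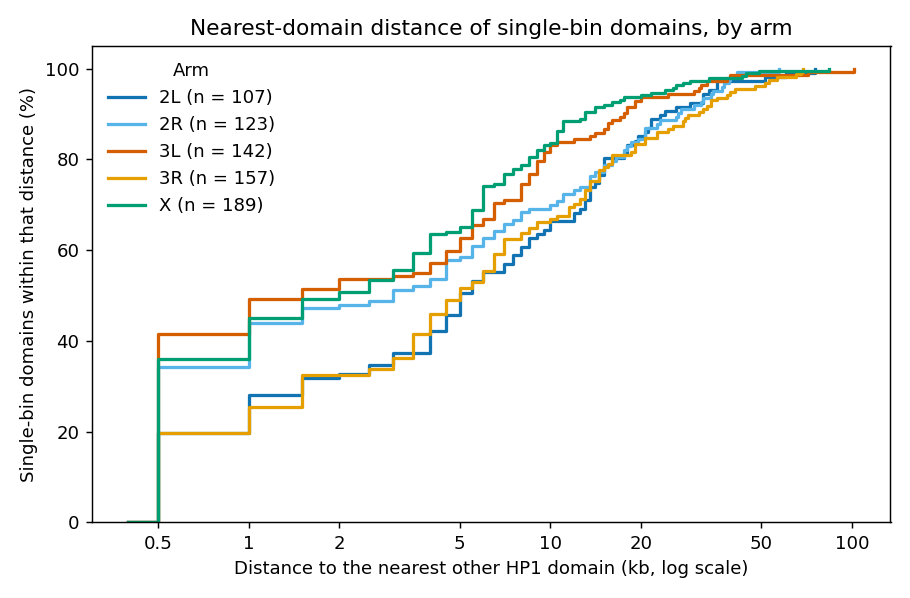
Share of the single-bin domains of each arm (y axis, %) that have another HP1 domain within a given distance (x axis, kb, log scale). At 0.5 kb the curve of 3L stands at 41.5% and those of X and 2R at 36.0% and 34.1%, against 19.6% on 2L and 19.7% on 3R.

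No other domain lay within 20 kb of 26 single-bin domains on 3R (16.6%, 95% interval 11.1 to 23.3), 19 on 2R (15.4%, 9.56 to 23.1) and 16 on 2L (15.0%, 8.80 to 23.1). The numbers were 9 on 3L (6.34%, 2.94 to 11.7) and 11 on X (5.82%, 2.94 to 10.2). Only the intervals of 3R and X lie apart (from 11.1 and up to 10.2), and as they are too narrow this is not a test. X had the lowest share and the highest density of domains, at 47.3 per Mb. Arms 3L and 2R had nearly the same density, at 38.8 and 38.4 domains per Mb. A link between density and isolation was not tested. Longer domains were also least often isolated on X (9.95%) and 3L (15.1%), against 17.3% on 2R, 17.6% on 3R and 21.4% on 2L.

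The most isolated single-bin domain of all lay on 3L at 3358001 to 3358500. It had 332000 bp free of domains on its left and 101500 bp on its right, where the next domain was 2500 bp long. On X the most isolated one, at 18610001 to 18610500, was 83500 bp from its nearest neighbour, which was itself a long domain of 31000 bp. The one on 2L, at 18104501 to 18105000, stood 75000 bp from another single-bin domain and 81500 bp from the nearest longer domain. On 3R the region at 22922001 to 22922500 was 68500 bp from its neighbour, and on 2R the region at 3907001 to 3907500 was 57000 bp away. Of the 13 without a neighbour within 50 kb, 6 lay on 3R (3.82% of its single-bin domains), 3 on 2L (2.80%), 2 on 3L (1.41%) and 1 each on 2R (0.81%) and X (0.53%). Longer domains had the same order by arm, with 3.57% on 3R, 2.95% on 2L, 2.25% on 3L, 1.28% on 2R and 1.03% on X. The 6 on 3R all lay in its distal part, between 19240001 and 26313500.

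Close neighbours were most often separated by exactly 1 bin. Of the 718, 221 (30.8%, 95% interval 27.4 to 34.3) had another domain 500 bp away, and only 58 more had their nearest one at 1000 bp. Among all 4084 gaps between consecutive domains inside the limits, 476 were of 500 bp, 120 of 1000 bp, 63 of 1500 bp and 26 of 2000 bp. Gaps then became more frequent again, to 101 at 4500 bp. The list thus held a sharp peak of 1-bin interruptions apart from a broad hump of spacings of 4 kb and more. Single-bin domains formed part of both.

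**Figure D2:**
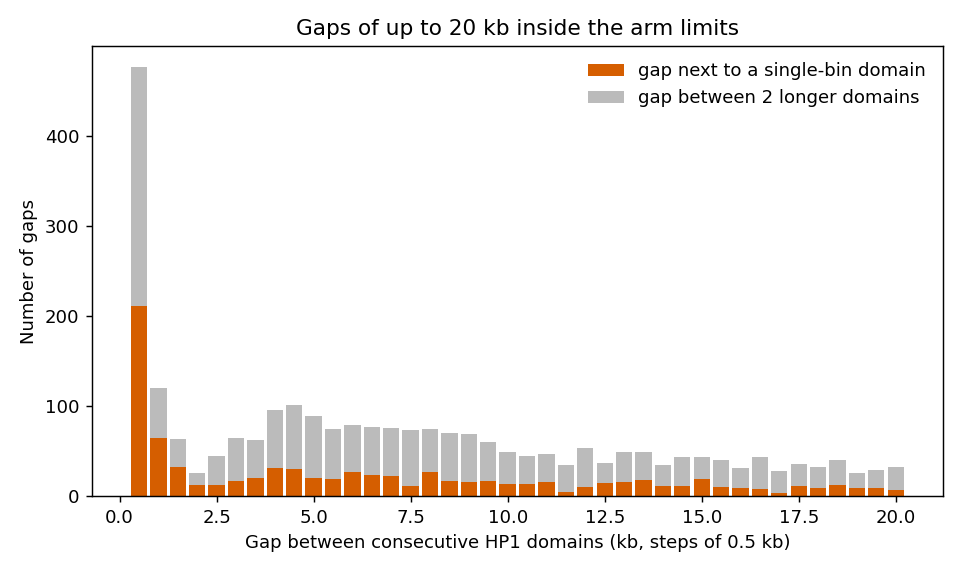
Number of gaps (y axis) by gap length in steps of 0.5 kb (x axis, up to 20 kb) between consecutive HP1 domains, split into gaps next to a single-bin domain and gaps between 2 longer domains. The bar at 0.5 kb holds 476 gaps, of which 211 touch a single-bin domain, and the trough at 2 kb holds 26.

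Single-bin domains were more common at the ends of short gaps than at those of long ones. They made up 26.8% of the domain ends that border a gap of 500 bp, 32.9% at 1000 bp, 31.0% at 1500 bp and 26.9% at 2000 bp. From 2500 bp upward their share lay between 13.8% and 16.1% in every class of gap, up to gaps of over 50 kb. Over all gaps it was 17.6%. The change thus came at about the trough between the short gaps and the broad hump, and beyond it their share no longer moved with the length of the gap.

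Longer domains were set off by a single bin less often. Another domain lay 500 bp away from 26.5% of the 548 domains of 1000 bp, 17.9% of the 900 of 1500 to 2000 bp, 15.4% of the 1117 of 2500 to 4500 bp and 19.6% of the 806 of at least 5000 bp. The share in single-bin domains (30.8%) stood above all of these, although its 95% interval (27.4 to 34.3) overlaps that of the 1000 bp class (22.8 to 30.4). The median distance to the nearest domain was 5500, 7000, 7500 and 5500 bp in these 4 classes, against 3750 bp. Since every length class comes from the same calls, these values describe the list and were not tested.

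On every arm a larger share of single-bin than of longer domains had a neighbour at 1 bin. On 2R 34.1% of single-bin and 18.1% of longer domains had a neighbour 500 bp away, and on X the shares were 36.0% and 19.0%. On 3L both were high, with 41.5% and 28.2%. On 3R they were 19.7% and 12.9%, and on 2L 19.6% and 16.3%, and on both the intervals of the 2 kinds overlap. Differences between arms in this respect were not tested. Arm 3L was thus the arm with the most 1-bin interruptions in domains of any length, with 142 of its 808 gaps (17.6%), against 7.46% of the gaps on 3R.

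**Figure D3:**
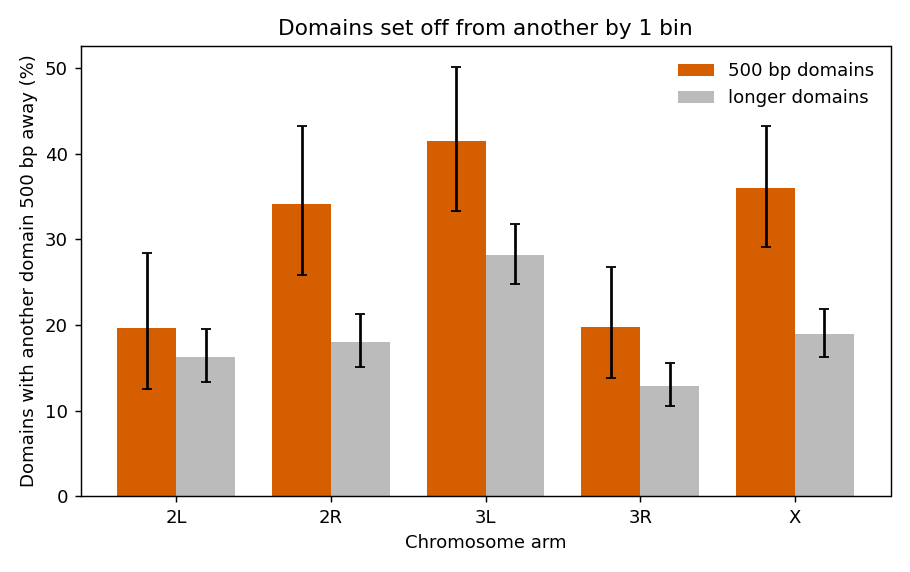
Share of domains with another domain exactly 500 bp away (y axis, %) by arm, for 500 bp domains and longer domains. Bars start at 0 and error bars are 95% Clopper-Pearson intervals over domains, which are not independent; the intervals of the 2 kinds are apart on 2R, 3L and X.

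Of the 221 single-bin domains with a 1-bin gap, 187 had such a gap on 1 side only and 34 on both sides. For the 187, the gap on the other side had a median of 12000 bp (quartiles 5750 and 28250), and it was over 5 kb in 141 (75.4%). Gaps inside the limits had a median of 12500 bp and 72.0% of them were over 5 kb. These values are not a matched background, because they include the 476 gaps of 500 bp. The other gap of the 187 cannot be of that length by construction. Leaving those gaps out would raise the share over 5 kb and could not lower the median. The matched values were not computed, so no comparison is drawn. The 34 with both gaps of 1 bin were spread over all arms, with 15 of them on 3L. That arm also had the largest share of 1-bin gaps between domains of any length (17.6%).

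Within 1 kb, 439 had no domain on either side, 142 had a longer domain on 1 side and nothing on the other, and 82 had another single-bin domain on 1 side. Another 28 were wedged between longer domains on both sides, 20 stood between a longer and a single-bin domain, and 7 between 2 single-bin domains. In all, 55 (7.66%) had a domain within 1 kb on both sides. The same held for 4.38% of the 1000 bp domains and 2.73% of all longer domains. Of the 28 wedged regions, 10 were on 3L (7.04% of its single-bin domains), 5 on 3R (3.18%), 5 on X (2.65%), 4 on 2L (3.74%) and 4 on 2R (3.25%). Longer domains with a domain of any length within 1 kb on both sides were also most frequent on 3L. Their share was 5.25% there, against 0.69% on 3R to 2.78% on 2L among the other arms. By the summed length of both flanks, the largest were on X (22500 bp), where the region at 8823001 to 8823500 had a domain of 9000 bp 1000 bp to its left and one of 13500 bp 500 bp to its right, and on 2L (21000 bp), where the region at 6593501 to 6594000 lay 500 bp from a domain of 9500 bp and one of 11500 bp. The longest single flank, 16500 bp, was beside the region on 3L at 20045001 to 20045500. These 3 regions were chosen after their values were seen.

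**Figure D4:**
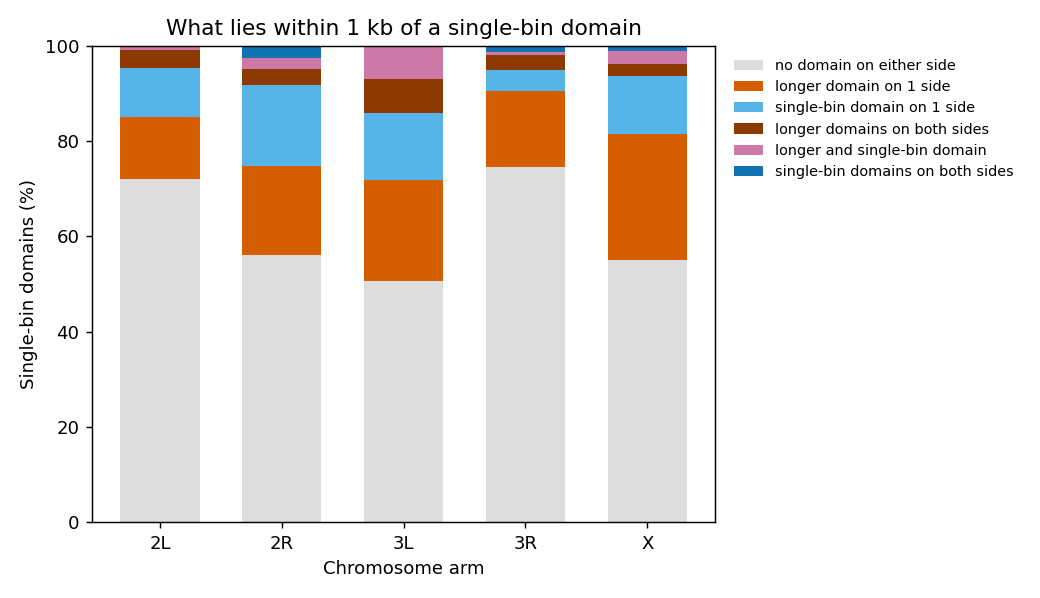
Share of the single-bin domains of each arm (y axis, %) by what lies within 1 kb on either side. The share with no domain on either side runs from 50.7% on 3L to 74.5% on 3R, and longer domains on both sides reach 7.04% on 3L.

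The nearest domain was another single-bin domain for 25.3% of the 718 (ties given to the longer neighbour), and for 32.6% of the 221 with a 1-bin gap, while single-bin domains were 17.6% of all domains. A second single-bin domain lay within 1 kb of 109 of them (15.2%). The same was true of 9.31% of the 1000 bp domains and of 5.09% of those of at least 5000 bp. In between, it was 7.11% at 1500 to 2000 bp and 5.19% at 2500 to 4500 bp. Among single-bin domains the share by arm was 22.0% on 2R, 21.1% on 3L, 15.9% on X, 11.2% on 2L and 6.37% on 3R. On 3R it was below that of the 1000 bp domains (9.09%), and the fall with length over all arms was not stepwise on each arm: on 3L it was 7.92% at 1000 bp and 10.2% at 5000 bp or more.

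Nearness to a longer domain was measured apart from nearness to any domain. The median distance to the nearest domain of at least 1000 bp was 6000 bp (quartiles 1000 and 14500). By arm it was 4000 bp on X, 5000 bp on 3L, 7000 bp on 2R, 7500 bp on 3R and 8000 bp on 2L. A longer domain lay within 5 kb of 339 (47.2%), and 125 (17.4%) had none within 20 kb. The latter share was highest on 2L (26.2%) and 3R (24.8%) and lowest on 3L (11.3%) and X (10.6%), with 2R at 17.9%. Longer domains had the same order, with 25.2% on 2L, 23.0% on 3R, 21.6% on 2R, 20.1% on 3L and 15.0% on X.

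The nearest domain of at least 5000 bp was a median of 42500 bp away, and 83 of the 718 (11.6%) had one within 5 kb. The share was near that of all longer domains (12.0%, median 38500 bp), and 17.5% of domains of at least 5000 bp had another such domain within 5 kb. Of these 83, 31 were on 3L, where they made up 21.8% of the single-bin domains, against 3.74% on 2L, 8.13% on 2R, 10.8% on 3R and 11.1% on X. Longer domains were also highest on 3L (16.8%) and lowest on 2L (7.99%), with 10.7% on 3R, 10.9% on 2R and 13.2% on X.

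The 3 longest domains inside the limits showed the range. The longest, 44000 bp on 3L at 17251001 to 17295000, had a single-bin domain only 500 bp beyond its right end, at 17295501 to 17296000. The second, 43500 bp on X at 15834501 to 15878000, had its nearest single-bin domain 73000 bp away, at 15951001 to 15951500. The third, 37500 bp on 3R at 10157001 to 10194500, had none closer than 343000 bp, at 10537501 to 10538000.

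Chains of domains at most 5 kb apart gave a view of larger groups. By this measure 299 single-bin domains (41.6%) stood alone, 72 fell into 34 chains made of single-bin domains only, and 347 (48.3%) fell into 286 chains with at least 1 longer domain. The share that stood alone was 49.5% on 2L and 48.4% on 3R, and 41.5% on 2R, 37.3% on 3L and 34.9% on X. Standing alone here is the same as having no domain within 5 kb, so this share is not a separate result. A domain of at least 5000 bp was in the chain of 106 (14.8%), from 6.54% on 2L to 24.6% on 3L. The same share was not computed for longer domains. By the other measure, such a domain within 5 kb, longer domains were also lowest on 2L (7.99%) and highest on 3L (16.8%).

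The chain with the most single-bin domains lay on 2R at 2304001 to 2388500, 84500 bp long, in the centromere-proximal part of the arm on which the rule sets no limit. It held 22 domains, of which 7 were single-bin. These stood in 2 runs, 3 between 2309001 and 2312500 and 4 between 2328001 and 2332500, with gaps of 500 to 1500 bp inside the runs. The longest domain of the chain was 13000 bp. No other chain held more than 4, which was the highest number on 3R and X, while 3L reached 3 and 2L 2.

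Domains were also joined across 1-bin gaps. After joining, 497 (69.2%) stayed single and 221 became part of 175 joined regions, with a median length of 3000 bp (quartiles 2000 and 6500) and up to 5 pieces. Of the 175, 29 consisted of single-bin domains only. The share that stayed single was 80.4% on 2L and 80.3% on 3R, against 65.9% on 2R, 64.0% on X and 58.5% on 3L. By construction this is the complement of the share with a neighbour 500 bp away, and not a separate result. The joined regions were longest on 3L, with a median of 6000 bp against 2500 to 3250 bp on the other arms.

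Along the arms, single-bin domains were spread from end to end. Over 102 windows of 1 Mb, each held at least 1 and at most 14 single-bin domains, with a median of 6, against 17 to 60 longer domains (median 30). The fullest window was X from 4000001 to 5000000, with 14 single-bin and 42 longer domains. Across the 102 windows the numbers of both kinds went together loosely (Spearman's rho 0.42, Pearson's r 0.46), as a description, since both come from the same calls and adjacent windows are not independent. The relation differed by arm, with rho of 0.60 on 3L over 20 windows and 0.07 on 2L over 19.

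When each arm was cut into 10 equal parts from its distal end (part 1) toward the centromere (part 10), neither end of the arms was without them. Over all arms the number lay between 56 in part 5 and 83 in part 10, and their share of all domains between 14.7% in part 5 and 21.2% in part 2. On X the largest shares were in the 4 distal parts, where single-bin domains were 21.7% to 27.4% of the domains, against 10.5% in part 9. On 2R the share was 6.45% in part 5, with 4 single-bin domains. On 3R parts 6 and 9 held 24 each, out of 157. Counts per part and arm are small, and none of these differences was tested.

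**Figure D5:**
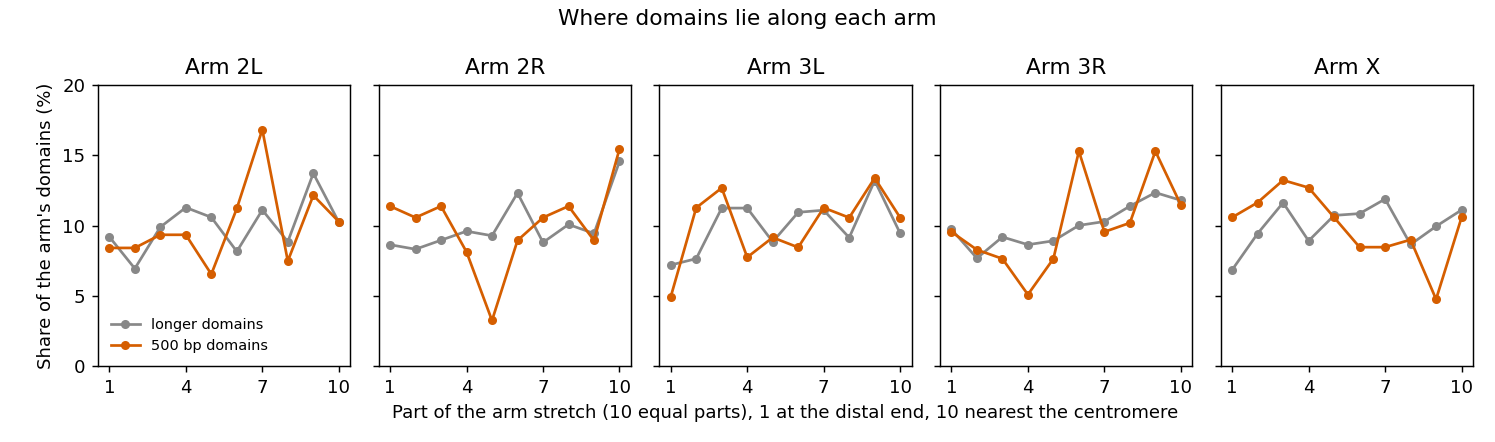
Share of the arm's single-bin domains and of its longer domains (y axis, % of each kind) in each of 10 equal parts of the stretch between its first and last domain inside the limits (x axis, 1 at the distal end). Single-bin domains were at 3.25% in part 5 of 2R. On X their share was above that of longer domains in parts 1 to 4 and slightly in part 8 (8.99% against 8.66%).

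Of the 378 domains outside the limits, 72 (19.0%) were single-bin, against 17.6% inside. The arms differed: on X the share was 27.3% outside and 19.6% inside, while on 2L it was 12.9% and 15.7%, on 3L 16.4% and 17.6%, and on 3R 16.9% and 17.7%. The median distance of the 72 to the nearest domain was 2500 bp, against 3750 bp inside, and 33 of the 72 were on X. By arm it was 1000 bp on X (2000 bp inside), 2500 bp on 2L (5000 bp) and 4500 bp on 3R (5000 bp). On 3L it went the other way, with 3000 bp outside and 1500 bp inside. At the limits themselves, the last single-bin domain kept on 2L ended at 19873500 with a neighbour at 19000 bp, and the first left out began at 20176501 with a neighbour at 500 bp. On 3R the last left out ended at 1960000 with a neighbour at 15000 bp and the first kept began at 2157001 with one at 15500 bp. On 3L the last kept, ending at 20861000, had a neighbour at 500 bp and the first left out, from 21934001, one at 27000 bp. On X these distances were 4000 bp (ending at 20314000) and 41500 bp (from 20422501).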

How the data were processed

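DamID of ovaries, with 2 Dam-HP1 and 2 Dam only samples, was deposited as 1 list of HP1 domains. Per the file headers, the authors called the domains with a hidden Markov model, and the deposited values are start and end positions, all whole multiples of 500 bp. Bowtie2 and HTSeq and the builds dm3 and BDGP5 are named in the submitters' processing notes, without versions or roles. The settings of the model, the handling of replicates and that of bins without GATC sites or reads are not given in the sources used here, and each of these can change where a domain is split or how many of 1 bin remain.

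Distances were computed from edge to edge to domains of the same arm, those beyond the arm limits included, with Python 3.11.15, numpy 2.4.6 and scipy 1.17.1, and the code was tested on simulated data. Drawings used matplotlib 3.10.9. There is no value per sample, so no depth, test or replicate error is given. Named regions are, per arm, the single-bin domain farthest from any other, the 5 kb chain with the most single-bin domains, and the single-bin domains nearest to the 3 longest domains; the 3 named regions wedged between longer domains were picked afterwards. Genes and sequences of the regions, and RNA-seq, were not used here, as no genome or annotation of dm3 was used. The members and measures were chosen with earlier results of these data known.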

Additional observations from a re-analysis of the deposited data

How the results depend on the processing

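Across 5 results (the number of single-bin domains, both medians and both shares) and 14 settings, 25 of 42 recomputed values stayed within 1.5 times the number or within the 95% interval. They were those with the arm limits moved by 1 Mb, with no arm limit, with neighbours inside the limits only, with large arms only (which the list already holds alone) and, chosen after seeing the data, with 2R up to 3 Mb left out, and the number with 500 bp gaps joined. The other 17 moved, as their construction sets. All of these values are over all arms together, so they do not show how 2R alone depends on its lack of a limit. With domains 500 bp apart joined first, the median distance to any domain was 6500 bp and to a larger one 8500 bp, 11.7% had a domain within 1 kb and 16.3% had none within 20 kb. With up to 1000 bp joined, the number was 439, the medians were 8000 and 10000 bp, and the shares 0% and 18.5%. Measured centre to centre the medians were 5500 and 8000 bp. With larger meaning at least 1500 or 5000 bp, the second median was 7500 or 42500 bp. With near meaning 500 bp or 5 kb the share was 30.8% or 58.4%, and with isolated meaning 10 or 50 kb it was 25.1% or 1.81%. No paired analysis was possible because the list has no value per sample; for the same reason no replicate could be left out and no stricter peak threshold applied.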
